A study of Saccharomyces cerevisiae with 16 samples.

Results

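The 8 genes described here are the protein genes of the yeast mitochondrial genome: COX1 (Q0045), COX2 (Q0250), COX3 (Q0275), COB (Q0105), ATP6 (Q0085), ATP8 (Q0080), ATP9 (Q0130, also called OLI1) and VAR1 (Q0140). They were taken by identifier and are 8 of 28 mitochondrial rows and of 6697 rows in the table of coding sequence (CDS) reads. The intron table holds 12 mitochondrial rows of 347, and those of COX1 and COB were used. RNA came from 8 samples of budding yeast, and each gave 1 polyA library and 1 ribodepleted library, 16 libraries in all. 5 samples were cultures of cells labelled as wild type, each grown for 24 h in rich medium with 1 stressor. LiCl, 0.32 µg/ml myriocin (an inhibitor of sphingolipid synthesis) and 0.85 µM fenpropimorph (an inhibitor of ergosterol synthesis) were near their half-inhibitory doses. The others, 0.4 M NaCl and 20% glucose, were each used at a single concentration. The paper describes a culture in 20% glucose as late exponential and one in LiCl as mid-exponential. 1 culture in LiCl carried RPS22B-GFP with the 5′ UTR intron of RPS22B deleted. Tag, deletion and any difference in strain background or marker cannot be told apart in its comparison with the wild type. The last 2 samples, Rps22B-high and Rps22B-low, were cells with RPS22B-GFP sorted by GFP level after 6 h in 4.5 mg/ml LiCl. The sample labels read 24 h for them, and the shorter time of the sort was used. For these, an mCherry marker under the TDH3 promoter is named in the genotype of the ribodepleted libraries alone. No drug-free culture was analysed here.

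Mitochondrial DNA of yeast is transcribed by a dedicated RNA polymerase, Rpo41, into long precursors that are cut into the mature RNAs. COX1, ATP8 and ATP6 come from the same precursor, as do ATP9 and VAR1. Apart from VAR1, which encodes a mitochondrial ribosomal protein, the genes encode core subunits of respiratory complexes made inside the organelle. Nuclear genes encode the remaining subunits of these complexes. Mature mitochondrial mRNAs of yeast end close to a conserved dodecamer in place of a poly(A) tail, whereas nuclear mRNAs carry a tail, which is what polyA selection captures. COX1 and COB contain self-splicing introns of group I and group II, several of which encode maturases or endonucleases.

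All 8 genes lie on the plus strand of the mitochondrial genome, and their coordinates in the files equalled those of RefSeq for R64 in 8 of 8 cases. COX1 occupies chrM:13818-26701 with 8 exons, COB chrM:36540-43647 with 6 exons, COX2 chrM:73758-74513, COX3 chrM:79213-80022, ATP6 chrM:28487-29266, ATP8 chrM:27666-27812, ATP9 chrM:46723-46953 and VAR1 chrM:48901-50097. In the R64 genome, each of the 5798 windows of 50 bases inside their exons occurred once on either strand, so no second copy of these windows could draw reads. Rows do overlap. The row of the intron reading frame AI5_ALPHA shares 972 bases with COX1, that of BI4 shares 756 bases with COB, and COX2 shares 19 bases with Q0255. Reads were counted in every overlapping row, and only the 8 genes were summed here, none of which overlaps another.

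The 3′ end word is shown because it marks where these mRNAs are known to end, and its part in the capture of the RNAs was not tested. The 12-base word shared by most members within 120 bases after the stop codon was AATAATATTCTT, tied with the word that starts 1 base before it. It was found for 5 of 8 members. Both strands together hold 11 copies (9 and 2), and 1.40% of all windows of 120 bases of the mitochondrial genome contain it. Capitals mark the word, the sequences are the plus strand of R64, and each starts at the position given.
COX1, chrM:26761-26790: taatataatAATAATATTCTTataaaaata
COX2, chrM:74567-74596: aataattatAATAATATTCTTaaatataat
COX3, chrM:80114-80143: tattattatAATAATATTCTTacaaatata
COB, chrM:43736-43765: taatactttAATAATATTCTTaaaaataat
ATP6, chrM:29344-29373: cccccttttAATAATATTCTTttatctaat
The word began 68 bases after the stop codon of COX1, 62 after that of COX2, 100 after COX3, 97 after COB and 86 after ATP6. These letters are not in the same window after ATP8, ATP9 or VAR1. The longest run of A inside the coding sequences was 9 bases, in VAR1, and 3 to 6 bases in the other members.

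The first question was how far each library type captured these transcripts. The 8 genes took 0.0796% to 0.275% of CDS reads in the ribodepleted libraries, and 4.04e-06% to 0.00113% in the polyA libraries of the same RNA. In reads, this was 28941 to 146233 per ribodepleted library and 2 to 430 per polyA library, out of totals of 36377857 to 53234402 and of 29557254 to 50337762 CDS reads. The member reads of the polyA libraries numbered 35 in LiCl, 2 in NaCl, 5 in glucose, 28 in myriocin, 7 in fenpropimorph, 34 in the intron deletion, 79 in Rps22B-high and 430 in Rps22B-low. Every polyA library lay below every ribodepleted one, and the sorted cells had the most polyA reads.

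The share was lower in the polyA library in 8 of 8 pairs, with a mean log2 ratio of -11.16 ± 2.12 (SD, n = 8 pairs), and the exact two-sided sign-flip permutation test gave p = 0.00781, the smallest this design can give. The pair with the widest gap was NaCl, with a log2 ratio of -13.94. The narrowest was Rps22B-low, with -7.13, so the size of the gap varied far more between pairs than its direction. The 2 libraries of a pair come from 1 RNA sample and are not independent cultures. Rps22B-high and Rps22B-low are fractions of 1 sorted culture, yet this test and the paired fit below count them as separate samples.

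**Figure D1:**
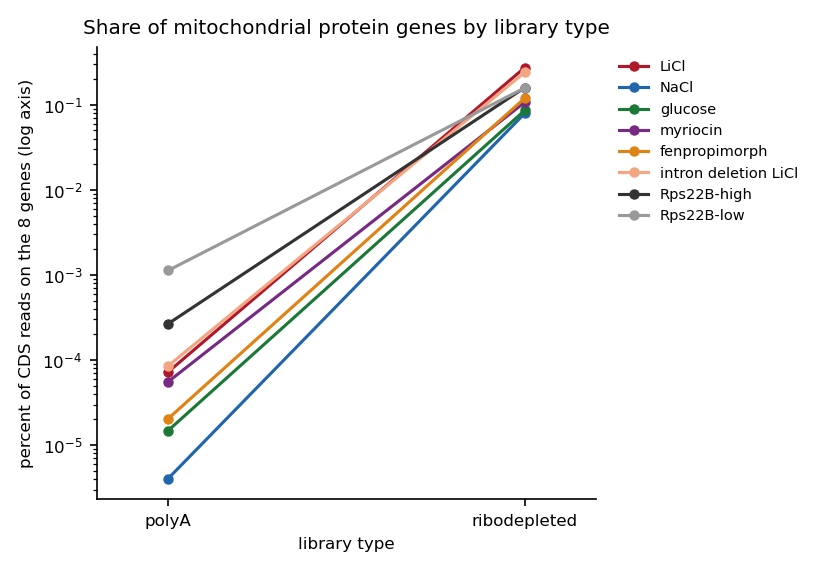
Percent of CDS reads on the 8 mitochondrial protein genes (log axis) in the polyA and the ribodepleted library of each RNA sample, joined by a line. All polyA values are at or below 0.00113% and all ribodepleted values at or above 0.0796%.

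A paired fit across all genes (edgeR quasi-likelihood test with the RNA sample as a block, Benjamini-Hochberg adjustment) gave each gene a log2 ratio of polyA over ribodepleted on TMM-scaled reads. Of 6641 genes tested, 31.9% were lower in polyA at an adjusted p under 0.05. On library totals in place of TMM, the split between lower and higher calls changed from 2120 and 2808 to 394 and 5483. 6 of 8 members were tested and all 6 were called lower. COX1 and COB had a polyA mean above the filter of 10 reads (47.1 and 10.5). Of these polyA reads, 281 of 377 for COX1 and 71 of 84 for COB came from Rps22B-low, and COB had 13 without it. The other members tested passed the filter through the ribodepleted libraries, so this count is not support of its own, and the ratios below are descriptions.

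ATP9, the ring subunit of ATP synthase that carries protons, had a log2 ratio of -12.02 ± 0.34 (SE), the lowest in this fit. COB, the cytochrome b of complex III, followed at -11.74 ± 0.83. COX1, the largest core subunit of cytochrome c oxidase (complex IV), was at -11.65 ± 0.90. COX2 and COX3, the other core subunits of that complex, were at -11.05 ± 0.47 and -10.88 ± 0.36. ATP6, the subunit of ATP synthase beside the ring, was at -9.55 ± 0.51. The median of all 6641 genes was 0.09. Without Rps22B-low, ATP6 was at -11.72, COB at -13.44, COX1 at -12.25 and COX2 at -12.15, and without LiCl COB was at -11.10. The order of the members was not fixed, since COB lay below ATP9 without Rps22B-low, in DESeq2 (-13.66 and -12.22) and in the 5 wild-type cultures (-14.86 and -12.57).

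Many polyA counts were at or under 3 reads, the largest number that an observed 0 allows, so pooled reads are given as well. ATP9 had 49 reads over the 8 polyA libraries and 113104 over the 8 ribodepleted ones, which per total CDS read is 2146-fold lower in polyA (95% counting interval 1623 to 2901). COX1 had 377 and 246817 reads, 609-fold lower (550 to 675), and 281 of the 377 came from Rps22B-low. COB had 84 and 93634 reads, 71 of the 84 from Rps22B-low, and COX2 had 39 and 46954. COX3 had 36 and 38454 reads and ATP6 32 and 14103, and 26 of the 32 came from Rps22B-low. The interval of ATP9 did not overlap that of COX1 with all 8 samples. Without Rps22B-low, ATP9 had 35 polyA reads and was 2687-fold lower (1932 to 3858), and COX1 had 96 and was 2072-fold lower (1697 to 2558), so the intervals overlapped and the difference rested on that library.

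VAR1, a protein of the small mitochondrial ribosomal subunit, had 3 polyA reads and 106 ribodepleted reads, a ratio of 0.0304 with an interval of 0.00618 to 0.0914. ATP8, a small membrane subunit of ATP synthase, had 0 polyA reads and 0 to 3 reads in each ribodepleted library, so no fold can be given. Both failed the filter. The nuclear subunits of complexes III and IV and of ATP synthase give the comparison with tailed mRNAs of the same complexes. Their log2 ratios ran from -0.42 to 2.89, with a median of 0.64 over 33 genes.

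Within the ribodepleted libraries the 8 genes differed widely per length. The level per length, in RPKM (reads per length and TMM-scaled library total), had a median over the 8 libraries of 1057 for ATP9, 371 for COX1, 172 for COB, 123 for COX2, 98.3 for COX3 and 40.5 for ATP6. It was 0.233 for ATP8 and 0.196 for VAR1. Within a library, ATP9 exceeded COX1, COX1 exceeded COB, COB exceeded COX2 and COX3 exceeded ATP6 in 8 of 8 libraries. COX2 exceeded COX3 in 6 of 8, so this pair had no fixed order. The ranges over cultures overlapped for each of these neighbours. ATP8 lies between COX1 and ATP6 on their shared precursor, yet had 12 reads in all against 246817 and 14103.

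**Figure D2:**
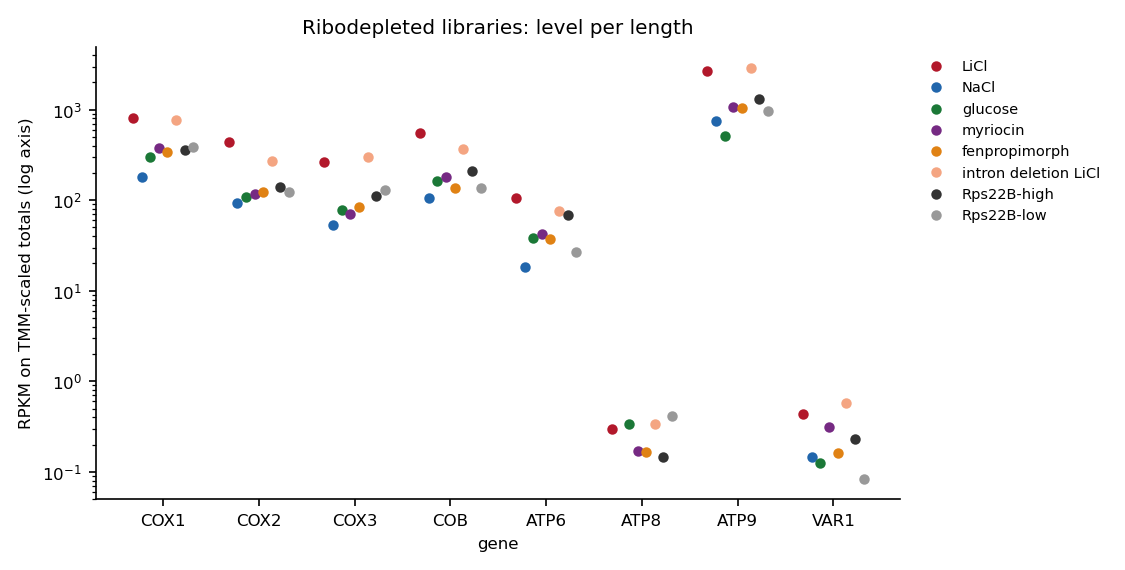
Level of each gene in the 8 ribodepleted libraries, in RPKM (reads per length and TMM-scaled library total, log axis). ATP9 is highest in each library, and ATP8 and VAR1 lie far below the other 6 genes. The NaCl library has 0 ATP8 reads and no point.

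Base composition followed the same order in part. G and C made up 33.3% of the coding sequence of ATP9, 30% of COX3, 29.9% of COX1, 27.7% of COB, 26.7% of COX2, 23.7% of ATP6, 19.0% of ATP8 and 10.4% of VAR1. Of 6669 nuclear CDS rows, 0 were below ATP8, with the lowest at 20.0% and a median of 39.8%. The middle 30 bases of the longest exon are given for the highest gene and the 2 that were barely read. They are on the plus strand with G and C in capitals.
ATP9, chrM:46823-46852: ttaatGGtGtatCaaGaaaCCCatCaatta
ATP8, chrM:27724-27753: tGattCtattattaattttattCtCaCaat
VAR1, chrM:49484-49513: taaGttattattataaaaaaaaaGtaaCta
These stretches hold 9, 5 and 3 G or C. In the other members the same stretch holds 11 in COX3, 8 in COB, 7 in COX1 and 5 in COX2 and in ATP6. By this count COX2 and ATP6 equal ATP8, and COX3 exceeds ATP9, so the stretches do not follow the levels. The part of base composition, and of the short length of ATP8 (147 bases), in the read counts was not tested.

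**Figure D3:**
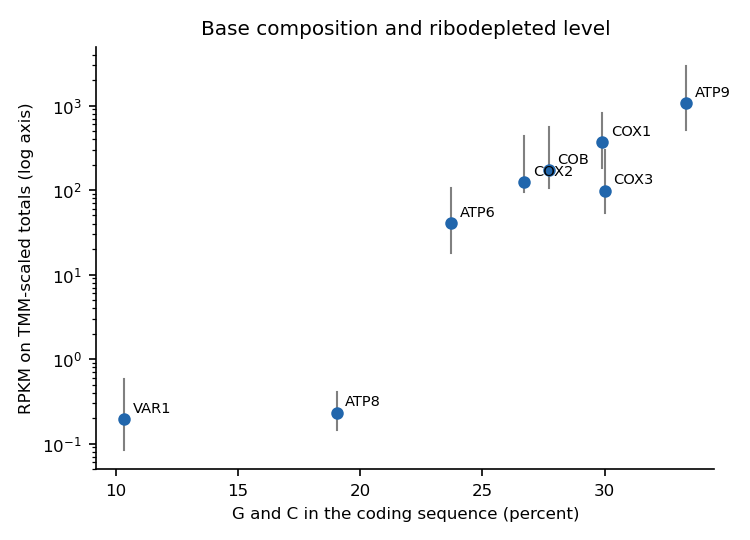
Percent of G and C in each coding sequence against the level in ribodepleted libraries (RPKM, log axis). Points are medians over 8 libraries and lines run from the lowest value above 0 to the highest; VAR1 and ATP8 have the lowest G and C and the lowest levels.

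The next question was how the levels differed between cultures. Each culture has 1 ribodepleted library, so no difference has a replicate check. Intervals in this account are 95% counting intervals, and a difference is called when it is at least 2-fold. The levels below are CPM, reads relative to the TMM-scaled library total. In these bulk samples, fewer mitochondrial genomes per cell, less RNA per genome and a different amount of nuclear RNA cannot be told apart. NaCl and glucose were not matched to LiCl by growth inhibition, and the part of growth rate or phase was not tested.

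Both unsorted LiCl cultures had the highest levels of each of the 6 well-read genes. COX1 was at 1296 CPM in LiCl, 1236 in the intron deletion in LiCl, 583 in Rps22B-high, 628 in Rps22B-low, 608 in myriocin, 541 in fenpropimorph, 484 in glucose and 290 in NaCl. COB was at 643 CPM in LiCl, 424 in the intron deletion, 241 in Rps22B-high, 157 in Rps22B-low, 211 in myriocin, 160 in fenpropimorph, 187 in glucose and 121 in NaCl. ATP9 was at 622 CPM in LiCl, 675 in the intron deletion, 299.8 in Rps22B-high, 225 in Rps22B-low, 248 in myriocin, 240.3 in fenpropimorph, 118 in glucose and 172 in NaCl. NaCl was lowest for COX1 and COB, whereas glucose was lowest for ATP9.

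ATP6 was at 82.5 CPM in LiCl, 60.02 in the intron deletion, 53.3 in Rps22B-high, 20.8 in Rps22B-low, 33.4 in myriocin, 28.9 in fenpropimorph, 29.8 in glucose and 14.2 in NaCl. COX2 ran from 70.9 CPM in NaCl to 331 in LiCl, and COX3 from 43.1 in NaCl to 241 in the intron deletion. VAR1 had 5 to 28 reads per library, with the most in the same 2 LiCl cultures.

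Against NaCl, all 7 members tested (ATP8 had too few reads) were at least 2-fold higher in LiCl, where 22.6% of 6616 genes were. ATP6 had the widest difference, log2 2.54 (2.41 to 2.67), and COX1 differed by 2.16 (2.13 to 2.19). ATP9 differed by 1.85 (1.81 to 1.89). VAR1 differed by 1.53 with the wide interval of 0.35 to 2.71.

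Against glucose, 7 of 7 members were at least 2-fold higher in LiCl, against 18.3% of all genes. Here ATP9 had the widest difference, 2.40 (2.35 to 2.44), and COX1 the smallest, 1.42 (1.40 to 1.44). Against myriocin, 6 of 7 members were at least 2-fold higher, against 15.5% of all genes, with log2 differences of 1.09 for COX1 to 1.89 for COX3 among the 6. VAR1, at 0.47 (-0.44 to 1.39), was not. Against fenpropimorph, 7 of 7 were, against 12.7% of all genes, from 1.26 for COX1 to 2.01 for COB. On library totals COX1 was at 0.96 (0.94 to 0.98), which leaves 6 of 7. These comparisons share the LiCl library, so they are not independent of each other.

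The other stressors differed less. Between glucose and NaCl, 1 of 7 members was at least 2-fold higher in glucose (7.33% of all genes), ATP6 at log2 1.07 (0.93 to 1.22), while ATP9 was at -0.54 (-0.60 to -0.49). Against myriocin, 2 of 7 members were at least 2-fold lower in glucose (7.16% of all genes). These were ATP9 at -1.07 (-1.12 to -1.02) and VAR1 at -1.26, whose interval of -2.58 to 0.06 included 0. Against fenpropimorph, 1 of 7 was at least 2-fold lower in glucose (9.39% of all genes), ATP9 at -1.02 (-1.07 to -0.97). ATP9 was thus the well-read member that went below the others in glucose. Its density was 170% of that of COX1 there and 248% to 413% in the other 7 libraries.

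**Figure D4:**
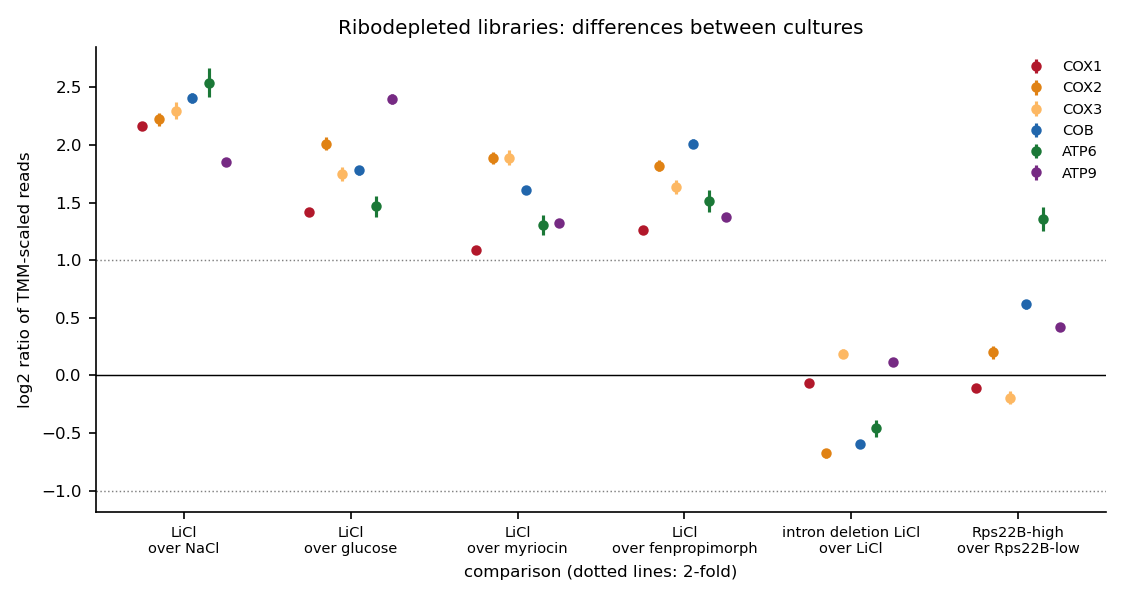
Log2 ratio of TMM-scaled ribodepleted reads for 6 members in 6 comparisons, with 95% counting intervals. Dotted lines mark 2-fold; all 6 genes lie above it in LiCl against NaCl, glucose, myriocin and fenpropimorph, and only ATP6 does in Rps22B-high against Rps22B-low.

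With the intron deletion in LiCl, 0 of 7 members were at least 2-fold lower than in wild-type LiCl cells, against 1.87% of all genes, and 0 were 2-fold higher. COX2 was at log2 -0.68 (-0.72 to -0.64) and COB at -0.60 (-0.63 to -0.57), while COX3 was at 0.19 (0.15 to 0.23) and ATP9 at 0.12 (0.09 to 0.14). The member genes therefore went both ways, by less than 2-fold.

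In the sorted cells, 2 of 7 members were at least 2-fold higher in Rps22B-high than in Rps22B-low cells, against 0.333% of all genes. ATP6 differed by 1.36 (1.25 to 1.46), from 2510 and 1032 reads. VAR1 differed by 1.37, from 13 and 5 reads, with an interval of -0.06 to 2.80 that included 0. COB was at 0.62 (0.57 to 0.66), ATP9 at 0.42 (0.38 to 0.45) and COX2 at 0.20. COX1 was at -0.11 (-0.13 to -0.09) and COX3 at -0.19. ATP6 and COX1, from the same precursor, thus stood in different proportion, with an ATP6 density of 18.8% of that of COX1 in Rps22B-high and 6.81% in Rps22B-low. The other 6 libraries lay between these, from 9.99% to 13.1%. In the polyA libraries of the sorted cells, COX1 was lower in Rps22B-high by log2 -2.18 (-2.62 to -1.73), from 46 and 281 reads. COB was lower by -3.04 (-4.20 to -1.88), from 6 and 71 reads. The ribodepleted libraries of the same RNA gave -0.11 and 0.62. All mitochondrial rows together had 316 polyA reads in Rps22B-high and 1966 in Rps22B-low, so the polyA gap was not particular to these 2 genes. Its cause was not tested.

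The nuclear genes for the same complexes are given as counts, from lists chosen with earlier results of these data known. In LiCl against NaCl, 22.6% of all genes were at least 2-fold higher. Of the nuclear subunits of complex III, 9 of 9 were, with a median log2 of 3.06, beside 0.03 over all genes. RIP1, the iron-sulfur protein, was at 3.50 and QCR10 at 4.04. Of complex IV, 9 of 9 rows were higher (median 2.55), including COX4 at 2.76 and COX7 at 3.06. Of ATP synthase, 14 of 15 were (median 1.78), with its inhibitor INH1 at 2.95 and ATP20 at 2.07. In Rps22B-high against Rps22B-low, 0 of these 33 genes were at least 2-fold higher or lower, where 0.333% of all genes were higher and 0.378% lower.

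Genes that act on the mitochondrial genome or its RNAs, or respond to mitochondria, were mixed in LiCl against NaCl. There, 22.6% of all genes were at least 2-fold higher and 20.5% lower. Of 5 transcription genes, 0 were 2-fold changed in LiCl against NaCl. RPO41, the polymerase, was at 0.33 and its specificity factor MTF1 at 0.34. Of 8 genes for maintenance of the mitochondrial genome, 1 was at least 2-fold lower, RIM1 at -1.27, a single-stranded DNA binding protein, while the helicase PIF1 was at -0.95. Of 74 mitochondrial ribosomal protein genes, 5 were higher, with RSM7 at 1.37 and RSM10 at 1.35. Of 5 genes for RNA decay and processing, RPM2, the protein of mitochondrial RNase P, was higher at 3.65 and the nuclease NUC1 lower at -1.64. Of 7 retrograde response genes, by which the nucleus responds to the state of mitochondria, 6 were higher, with CIT2 at 5.06 and PDH1 at 4.20. Among the lists in this paragraph, only this one had a count above the shares over all genes.

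Of 23 factors that act on single mitochondrial mRNAs or their protein products, 6 were at least 2-fold higher in LiCl than in NaCl. This is a share near the 22.6% of all genes. For COX1, the translational activators MSS51 and PET309 were at 0.51 and 0.17. For COX2, PET111 was at 0.61. For COX3, PET494 was at 1.29, PET122 at 0.75 and PET54 at 0.69. For COB, CBS1 was at 0.51, CBS2 at 0.98 and the assembly factor CBP4 at 2.22. For the ATP6 mRNA, ATP22 was at 1.23 and NCA3 at 4.27, the widest difference of the list. For ATP9, AEP1 was at 0.77 and AEP2 at -0.22, and for VAR1, SOV1 was at 0.67. In Rps22B-high against Rps22B-low, 0 of the 23 were 2-fold changed, as few as the shares over all genes would give. CBS1 was at 0.80, beside COB at 0.62, and ATP22 at 0.10, beside ATP6 at 1.36.

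The nuclear genes most like the members over the 8 ribodepleted libraries were found among 6283 genes by Pearson's r of log2 CPM with the mean of the 8 members. They were YLR294C (r = 0.977), COX6 (0.973), GPG1 (0.972), GND2 (0.972) and STP3 (0.965). That mean includes the barely read ATP8 and VAR1. With the 6 well-read members alone, r was 0.973, 0.969, 0.949, 0.965 and 0.950 in the same order. COX6 is a nuclear subunit of complex IV, and YLR294C shares 32 bases with ATP14, a subunit of ATP synthase. COX6 was at 93.7 CPM in LiCl and 15.95 in NaCl. The points are 8 single libraries, 2 of them unsorted LiCl, and r is a description. Among 7 members themselves, r ranged from 0.651 to 0.968 over 21 pairs.

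The introns of COX1 and COB were the last subject. The 7 introns of COX1 sum to 11279 bases against 1605 of CDS, and the 5 of COB to 5950 against 1158. The ratio of intron to CDS read density of COX1 in ribodepleted libraries was 50.7% in LiCl, 42.8% in NaCl, 34.1% in glucose, 32.4% in myriocin, 25.1% in fenpropimorph, 34.7% in the intron deletion, 38.5% in Rps22B-high and 26.6% in Rps22B-low. LiCl was highest, 2.02-fold above fenpropimorph and 1.18-fold above NaCl. That of COB was far lower, at 4.53% in LiCl, 5.30% in NaCl, 2.76% in glucose, 4.81% in myriocin, 3.29% in fenpropimorph and in the intron deletion, 5.66% in Rps22B-high and 3.01% in Rps22B-low. Rps22B-high exceeded Rps22B-low by 1.45-fold for COX1 and 1.88-fold for COB.

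The starts of the introns are shown because the introns with the most reads, aI1 and aI2, share a start. Each sequence has 15 exon bases, then 15 intron bases, of which the first 5 are in capitals, on the plus strand of R64.
aI1, chrM:13972-14001: cacaattatttaatgGTGCGcctctcagtg
aI2, chrM:16456-16485: tattaatgattttctGTGCGccgtttcgct
aI3, chrM:18977-19006: ggaggttttggtaacCAAAAaagatatgaa
aI4, chrM:20970-20999: ttttgattctttggtCAAACagtggccctt
aI5 gamma, chrM:25328-25357: tggtgggacattttcGTGCGgtctgaaagt
bI1, chrM:36940-36969: gtgtttatggacagaGTGAGacaagtataa
aI1, aI2, aI5 gamma and bI1 are group II introns. The first 3 of these begin with GTGCG, and 0 of the other 8 introns do.

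The intron rows nest, so that single introns were obtained by subtraction, a step chosen after the tables had been seen. In ribodepleted libraries the read density of aI1 was 49.8% to 108% of that of the COX1 CDS, with a median of 69.1%. That of aI2 was 46.4% to 96.3%, and both were highest in LiCl and lowest in fenpropimorph. aI3, a group I intron, was at 16.6% to 21.6%, the smallest ratio of highest to lowest value among the introns (1.30). aI4 was at 2.33% to 4.77%, and the aI5 alpha, beta and gamma introns together were at 4.53% to 8.62%. aI1 and aI2 held 82.3% to 88.3% of COX1 intron reads on 43.7% of the intron length. bI1, also a group II intron, was at only 1.27% to 5.27% of the COB density. Of the other COB introns, bI2 was at 0.304% to 1.80%, bI3 at 0.282% to 1.08%, and bI4 with bI5 at 5.96% to 13.6%. Reads of an unspliced RNA and of a released, stable intron cannot be told apart in these counts.

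**Figure D5:**
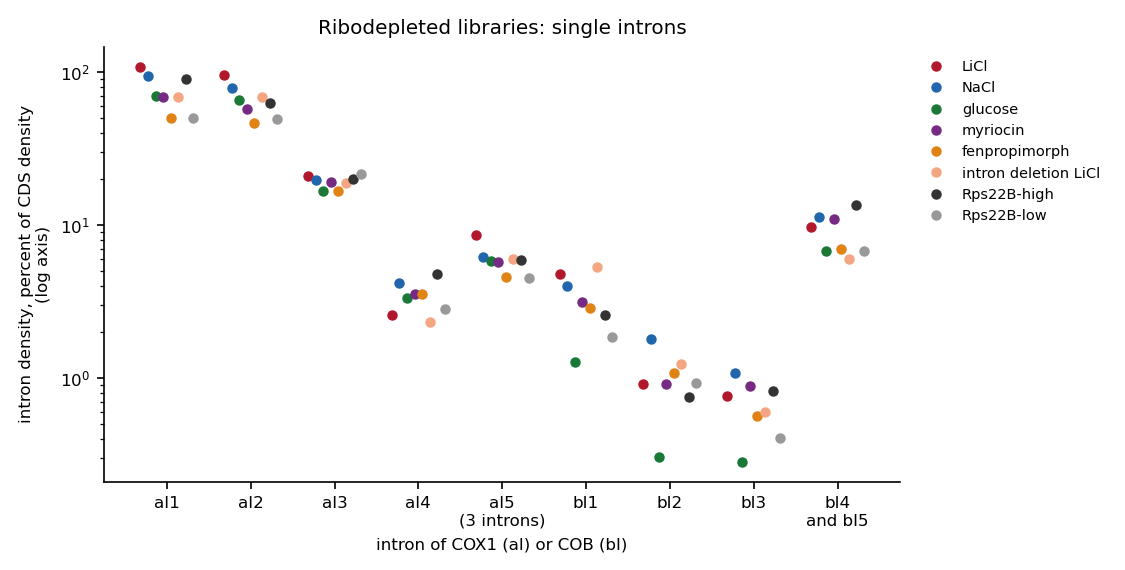
Read density of single introns of COX1 (aI) and COB (bI) as a percent of the CDS density of their gene (log axis), in the 8 ribodepleted libraries. aI1 and aI2 reach 108% and 96.3% in LiCl, and bI2 and bI3 stay at or under 1.80%.

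In the polyA libraries the COX1 ratio rested on 0 to 281 CDS reads. It was higher than in the ribodepleted library in 7 of 8 pairs, by a mean log2 of 1.09 ± 1.12 (SD, n = 8 pairs). The exact two-sided sign-flip permutation test gave p = 0.0156, and it counts both fractions of the sorted culture as separate pairs. The NaCl pair, with 17 intron reads and 0 CDS reads, had a log2 difference of 3.54 that depends on the 0.5 reads added to each count. Without it, the mean was 0.74. COB had 0 to 6 CDS reads in 7 of 8 polyA libraries, so its test is void. With 71 CDS reads, Rps22B-low had a COB ratio of 10.7% (7.25 to 15.8), beside 3.01% in its ribodepleted library. Rps22B-high, with 6 intron and 6 CDS reads, had 19.5% (6.62 to 57.2), and LiCl, glucose and the intron deletion had ratios on 1 to 4 CDS reads each.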

How the data were processed

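The 8 members and all gene lists were chosen with earlier results of these data known. The authors trimmed reads with cutadapt, aligned them to the R64 genome with HISAT2 and deposited raw counts of reads per CDS and per joint introns of a gene from featureCounts, not normalized, according to the paper's methods and the submitters' processing notes, whose tool versions are not used here. Row lengths in the tables, which the authors deposited beside the counts and which are no counts, are in bases (other values). PolyA and ribodepleted libraries (rRNA removed with FastSelect) used the same stranded kit. The strand and overlap settings of the counting are not given in the sources used here. That reads were counted in every overlapping row was read from the nested intron rows. Counts per 5′ UTR intron were not used. Symbols were matched for 6014 of 6697 rows through RefSeq R64.

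Counts were scaled by TMM in edgeR 4.0.16 (R 4.3.3). The paired fit used genes with a mean of 10 reads over 16 libraries. Its design was tested on simulated data, with changes between library types far smaller than those of the members. Log2 ratios of single libraries used genes with a mean of 10 reads over 8 libraries and 0.5 added reads. Intervals (95%, counting standard error for log2 ratios, exact binomial for pooled ratios, Wilson for the COB ratio) cover counting error only, and so do floors of 3 reads. Replicates of a culture do not exist, and p-values measure the spread between RNA samples. The pairing is given by the shared RNA sample. Named genes were the 8 members, factors specific to a member, the 2 genes of each list with the widest ribodepleted difference at a mean of 50 reads or more, and the 5 most similar genes. Depth was 29557254 to 53234402 CDS reads per library. Alternatives were DESeq2 1.42.0, its size factors, library totals, TMM on nuclear genes, no filter, no replicate block, 1 added read, wild type only, halved counts, polyA libraries and leaving out each RNA sample. Python 3.11.15 with scipy 1.17.1, numpy 2.4.6, pandas 2.3.3 and matplotlib 3.10.9 was used.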

Additional observations from a re-analysis of the deposited data

Results flagged for a closer look

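In 23 sets of 8 libraries, the highest and lowest values were compared with the rest by Dixon's criterion, and 4 stood apart. About 1 in 20 independent sets would by chance, but these sets overlap, so the count cannot be set against that rate. The COX1 and COB reads named next are part of the share of the 8 genes. In the polyA libraries, Rps22B-low had 0.00113% of CDS reads on the 8 genes, COX1 at 6.11 CPM and COB at 1.54 CPM, each far above the other 7 libraries. In the ribodepleted libraries, LiCl had an aI5 alpha, beta and gamma density of 8.62% of that of the COX1 CDS. In a part of the tables used in no comparison, the intron of the 21S ribosomal RNA gene held 40687 reads over the 8 ribodepleted libraries, 1919 to 7358 per library, and 3 to 148 reads per polyA library. The causes were not tested.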

How the results depend on the processing

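The count of 6 members lower in polyA was 6 under DESeq2, its size factors, library totals, no replicate block, wild type only and halved counts, 8 with no filter, and 6 to 6 leaving out each RNA sample. Of all genes, 2120 were lower and 2808 higher, and 954 and 1093 without the replicate block. Library totals moved the median of all genes from 0.09 to 1.06 and COX1 from -11.65 to -10.66. The share ratio was -11.74 to -10.76 leaving out each RNA sample. In the 5 wild-type cultures it was -12.30 with p = 0.0625 (exact permutation test), the smallest 5 pairs allow. The COX1 intron difference was 0.74 to 1.27 leaving out each RNA sample, 1.25 in wild type (p = 0.125, exact permutation test, 5 pairs) and -10.00 for intron reads over the library total, another quantity that follows the low polyA reads themselves. In the polyA libraries 2 members were tested, COX1 and COB. In LiCl, 2 were at least 2-fold higher against NaCl (21.1% of all genes), and 1 against glucose (19.2%), 1 against myriocin (15%) and 1 against fenpropimorph (13.2%). These counts rest on few reads. In LiCl and NaCl, COX1 had 16 and 0 reads and COB 2 and 0, with a COB interval of -2.44 to 6.33. In the same libraries, glucose had 2 higher against NaCl (7.18%), 1 lower against myriocin (9.98%) and 0 lower against fenpropimorph (11.7%). Rps22B-high had 0 higher than Rps22B-low (0.12%). For glucose against NaCl, library totals gave 0 and no filter 2, the second being ATP8 with 2 and 0 reads. For LiCl against fenpropimorph, library totals gave 6. Library totals moved the median of all genes by -0.37 (LiCl against NaCl) at most. Depth limits ATP8, VAR1 and all members in polyA libraries.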
